A study of Homo sapiens with 4 samples.

Results

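The aldo-keto reductases AKR1B1, AKR1B10, AKR1B15, AKR1C1, AKR1C2 and AKR1C3 were followed through 4 RNA libraries of the human lung cancer line NCI-H460 (non-small cell type). They are 6 of the 26364 gene symbols in the count tables, taken by symbol for how their library-scaled counts lay across the layout, so their own values are given as a description with no test. Cells had received 0 or 4 Gy of gamma rays and then 48 h in either 2 uM 3-deazaneplanocin A (DZNep) or the solvent DMSO. The 4 groups, DMSO without and with 4 Gy and DZNep without and with 4 Gy, had 1 library each and therefore no replicate, and all 4 share the one line. DZNep blocks S-adenosylhomocysteine hydrolase and so slows cellular methylation, and the design asked which transcripts differ with the drug, the radiation and both.

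Aldo-keto reductases are cytosolic enzymes that use NADPH to turn aldehydes and ketones into alcohols. AKR1B1 is aldose reductase, which makes sorbitol from glucose, and AKR1B10 reduces retinal and lipid-derived aldehydes. The AKR1C enzymes reduce steroid ketones: AKR1C1 inactivates progesterone, AKR1C2 inactivates dihydrotestosterone, and AKR1C3 makes testosterone and prostaglandin F. Several of these genes are known targets of the transcription factor NRF2 (gene NFE2L2), which KEAP1 holds in check, and NCI-H460 is known as a KEAP1-mutant line.

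Close relatives in this family share so much sequence that a read can match more than 1 gene, so the coding sequences of the principal GENCODE 29 transcripts were compared first. AKR1B10 and AKR1B15 differed at 62 of 948 aligned bases (93.46% identity), and AKR1C1 and AKR1C2 at 19 of 969 (98.04%). AKR1C3 was 91.43% identical to AKR1C1 and 91.02% to AKR1C2, whereas AKR1B1 was 77.07% identical to AKR1B10. Of all 50-base windows in the AKR1B15 coding sequence, 18.11% also occurred in AKR1B10 transcripts, and 19.8% of those in AKR1B10 occurred in AKR1B15. For AKR1C1 and AKR1C2, 51.63% of the windows of each occurred in the other. AKR1C3 shared 23.04% of its windows with other genes and AKR1B1 shared 7.23%, the latter with its pseudogenes. AKR1B10 and AKR1B15 can thus be told apart by most 50-base windows, while AKR1C1 and AKR1C2 cannot be told apart by over 50% of theirs. The 240-base coding stretches below are shown because they hold the most mismatches between each pair among gap-free windows taken every 60 bases, with mismatched bases in capitals (bases 301 to 540 of AKR1B10 and 385 to 624 of AKR1B15, with 11 mismatches, then bases 1 to 240 of AKR1C1 and AKR1C2, also with 11).
AKR1B10: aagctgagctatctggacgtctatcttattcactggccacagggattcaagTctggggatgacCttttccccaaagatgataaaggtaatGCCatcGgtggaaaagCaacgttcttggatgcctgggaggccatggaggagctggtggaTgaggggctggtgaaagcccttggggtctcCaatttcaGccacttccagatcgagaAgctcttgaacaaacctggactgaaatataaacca
AKR1B15: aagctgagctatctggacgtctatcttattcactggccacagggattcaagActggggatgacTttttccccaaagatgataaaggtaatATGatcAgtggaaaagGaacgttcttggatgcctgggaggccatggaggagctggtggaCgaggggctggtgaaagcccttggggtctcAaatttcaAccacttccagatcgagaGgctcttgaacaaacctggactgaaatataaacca
AKR1C1: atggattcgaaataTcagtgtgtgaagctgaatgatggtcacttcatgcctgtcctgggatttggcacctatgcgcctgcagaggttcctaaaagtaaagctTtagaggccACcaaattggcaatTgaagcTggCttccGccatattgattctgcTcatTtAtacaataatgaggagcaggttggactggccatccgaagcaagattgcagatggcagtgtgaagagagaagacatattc
AKR1C2: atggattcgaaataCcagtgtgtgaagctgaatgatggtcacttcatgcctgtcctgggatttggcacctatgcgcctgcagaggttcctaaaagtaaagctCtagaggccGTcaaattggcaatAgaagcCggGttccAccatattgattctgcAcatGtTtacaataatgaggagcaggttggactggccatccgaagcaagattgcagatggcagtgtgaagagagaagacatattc

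The likeness of AKR1C1 and AKR1C2 extended upstream of their starts. RefSeq promoters (GRCh38.p14, the 250 bases before the start, 5′ to 3′ on the gene's strand) were found for AKR1B1, AKR1C1, AKR1C2 and AKR1C3, 4 of the 6 genes. Those of AKR1C1 (chr10:4963165-4963414, plus strand) and AKR1C2 (chr10:5003858-5004107, minus strand) were identical at 245 of 246 aligned bases. That of AKR1C3 at the second of its starts (chr10:5094164-5094413, plus strand) was 78.63% identical to AKR1C1. These 3 are printed to set the members whose levels hardly differed with the drug, AKR1C1 and AKR1C2, beside the one that was lower, AKR1C3. Capitals mark the motif CCAAT on the minus strand, read here as ATTGG, which starts at base 174 of the AKR1C1 window, base 170 of that of AKR1C2 and base 165 of that of AKR1C3. CCAAT, on either strand, occurred in 32% of all 35116 promoter windows of that length. The window at the first AKR1C3 start (chr10:5048531-5048780, plus strand), 76.76% identical to AKR1C1, is not printed. It also held CCAAT, as did 1 AKR1B1 window. It alone among the windows of these genes held TATAAA, which was in 10.7% of all windows. The letters TGACNNNGC, a short form of the site that NRF2 binds, and TGANTCA, that of AP-1, were searched on both strands and were in none of the windows of these 4 genes, against 10.9% and 6.57% of all windows. Sequence outside these windows, and any of AKR1B10 and AKR1B15, was not searched, so sites elsewhere cannot be told.
AKR1C1: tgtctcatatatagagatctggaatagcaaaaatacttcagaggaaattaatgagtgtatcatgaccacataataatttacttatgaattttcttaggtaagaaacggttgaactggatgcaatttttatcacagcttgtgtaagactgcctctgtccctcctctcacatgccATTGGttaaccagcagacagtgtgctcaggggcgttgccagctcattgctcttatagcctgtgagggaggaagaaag
AKR1C2: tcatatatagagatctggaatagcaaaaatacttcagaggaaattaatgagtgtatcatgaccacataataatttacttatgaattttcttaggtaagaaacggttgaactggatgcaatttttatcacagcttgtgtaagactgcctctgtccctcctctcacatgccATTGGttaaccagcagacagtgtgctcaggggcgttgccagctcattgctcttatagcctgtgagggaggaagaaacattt
AKR1C3: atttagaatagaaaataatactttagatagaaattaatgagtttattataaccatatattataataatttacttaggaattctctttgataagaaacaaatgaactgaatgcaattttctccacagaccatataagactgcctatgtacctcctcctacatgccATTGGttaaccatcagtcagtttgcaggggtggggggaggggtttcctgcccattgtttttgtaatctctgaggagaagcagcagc

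Library totals were 112461380 to 136594350 counts, and the 100 most abundant genes took 33.4% to 33.97% of each library. Levels are CPM (counts scaled to 1e+06 per library) after adjustment by edgeR's TMM factors of 0.979 to 1.01. The line's epithelial keratins KRT8, KRT18 and KRT19 stood between 146 and 2070 CPM, while the epithelial markers EPCAM and CDH1 were under 1 CPM in all 4. KRT8 and KRT18 were higher in the DZNep libraries (1796 to 2070 CPM) than in the DMSO libraries (633 to 861 CPM). KRT19 was lower with DZNep, at 146 against 153 CPM at 0 Gy and 178 against 247 CPM at 4 Gy. The part of these differences in the values below was not tested. FN1, a mesenchymal marker, stood at 9950 CPM in DMSO 0 Gy and 17892 to 22410 CPM in the other 3 libraries. Of the other mesenchymal markers, VIM was lower with DZNep (867 against 755 CPM at 0 Gy and 976 against 769.8 CPM at 4 Gy), CDH2 stood at 1.49 to 1.71 CPM and ZEB1 at 13.1 to 18.7 CPM. The 4 endothelial markers summed to under 1 CPM in every library. The 6 fibroblast markers summed to 22.7 to 37.4 CPM with DCN and LUM under 1 CPM, and of the 6 blood markers PTPRC, CD3E, LYZ and HBB were under 1 CPM. In bulk RNA, fewer cells expressing a gene and less RNA per cell cannot be told apart.

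AKR1B15 and AKR1B10 were lower with DZNep at both doses, and their neighbour AKR1B1 was slightly higher. AKR1B10 stood at 366 CPM in DMSO 0 Gy, 309 CPM in DMSO 4 Gy, 109.9 CPM in DZNep 0 Gy and 106 CPM in DZNep 4 Gy, from 50691, 34744, 14224 and 12020 counts. Both DZNep libraries thus lay well below both DMSO libraries. The level of AKR1B10 in DMSO was 3.33-fold that in DZNep at 0 Gy (log2 ratio of DZNep to DMSO -1.74, interval -1.76 to -1.71) and 2.93-fold at 4 Gy (-1.55, interval -1.58 to -1.52). Each interval is an exact conditional binomial 95% interval that covers counting error only. AKR1B15 stood at 75.95 CPM in DMSO 0 Gy, 60.6 CPM in DMSO 4 Gy, 5.07 CPM in DZNep 0 Gy and 4.19 CPM in DZNep 4 Gy, from 10513, 6810, 656 and 477 counts. Its level in DMSO was 14.9-fold that in DZNep at 0 Gy (log2 ratio -3.90, interval -4.02 to -3.79) and 14.4-fold at 4 Gy (-3.85, interval -3.99 to -3.72). Counted from the lowest ratio, AKR1B15 had rank 3 of 8143 genes at 0 Gy and rank 2 of 8210 at 4 Gy, and AKR1B10 had ranks 69 and 107. Ranked genes had 10 CPM or more in at least 1 library of the pair, which AKR1B15 reached only in DMSO.

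AKR1B1, aldose reductase, stood at 171 CPM in DMSO 0 Gy, 204 CPM in DMSO 4 Gy, 225 CPM in DZNep 0 Gy and 243 CPM in DZNep 4 Gy. Its lowest library was DMSO 0 Gy and its highest DZNep 4 Gy, with both DZNep libraries above both DMSO libraries. The DZNep difference was 31.1% at 0 Gy (log2 ratio 0.39, interval 0.37 to 0.42) and 19.2% at 4 Gy (0.25, interval 0.23 to 0.28). At least 2-fold lower with DZNep were 2 of the 6 genes, AKR1B10 and AKR1B15, at each dose, beside 3.61% of genes at 0 Gy and 3.91% at 4 Gy, and 0 of the 6 were at least 2-fold higher, beside 3.61% and 3.25%. The genes were chosen from these values, so the counts are a description.

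**Figure D1:**
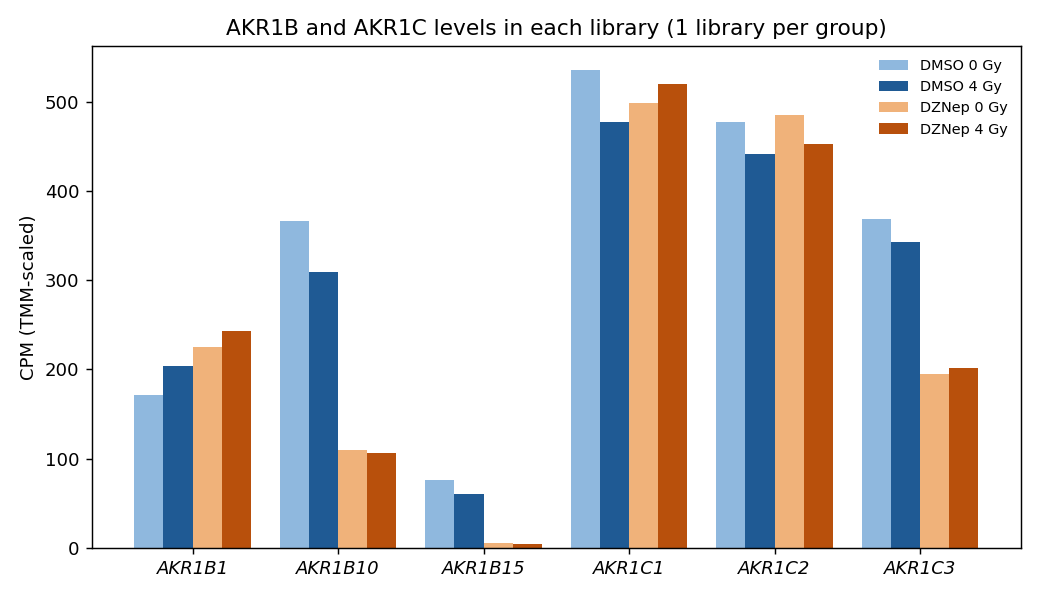
TMM-scaled CPM of each gene (y axis) in the 4 libraries, 1 bar per library, with no error bars because each group is 1 library. AKR1B10, AKR1B15 and AKR1C3 have lower bars in both DZNep libraries than in both DMSO libraries, AKR1C1 and AKR1C2 lie between 441 and 536 CPM in all 4, and AKR1B1 is highest in DZNep 4 Gy.

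AKR1C3, which makes testosterone and prostaglandin F, was the AKR1C gene that differed most between drug and solvent. It stood at 368 CPM in DMSO 0 Gy, 343 CPM in DMSO 4 Gy, 195 CPM in DZNep 0 Gy and 202 CPM in DZNep 4 Gy. Both DZNep libraries lay below both DMSO libraries. Its level in DMSO was 1.89-fold that in DZNep at 0 Gy and 1.70-fold at 4 Gy, with log2 ratios of -0.92 (interval -0.94 to -0.90) and -0.76 (interval -0.79 to -0.74). These ratios did not reach 2-fold.

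AKR1C1 stood at 536 CPM in DMSO 0 Gy, 477 CPM in DMSO 4 Gy, 499 CPM in DZNep 0 Gy and 520.1 CPM in DZNep 4 Gy. The drug and solvent libraries overlapped, with DMSO 0 Gy the highest and DMSO 4 Gy the lowest. AKR1C2 stood at 477, 441, 486 and 453 CPM in the same order, and its groups overlapped too. The log2 ratios of DZNep to DMSO were -0.10 at 0 Gy and 0.12 at 4 Gy for AKR1C1, and 0.03 and 0.04 for AKR1C2. Because reads from these genes are hard to tell apart, their sum is the safer measure: 1014 CPM in DMSO 0 Gy, 919 in DMSO 4 Gy, 984 in DZNep 0 Gy and 973 in DZNep 4 Gy. The summed ratio was -0.04 (interval -0.05 to -0.03) at 0 Gy and 0.08 (interval 0.07 to 0.09) at 4 Gy. With AKR1C3 added, the AKR1C sum was 1382, 1262, 1179 and 1175 CPM, a log2 ratio of -0.23 at 0 Gy and -0.10 at 4 Gy.

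**Figure D2:**
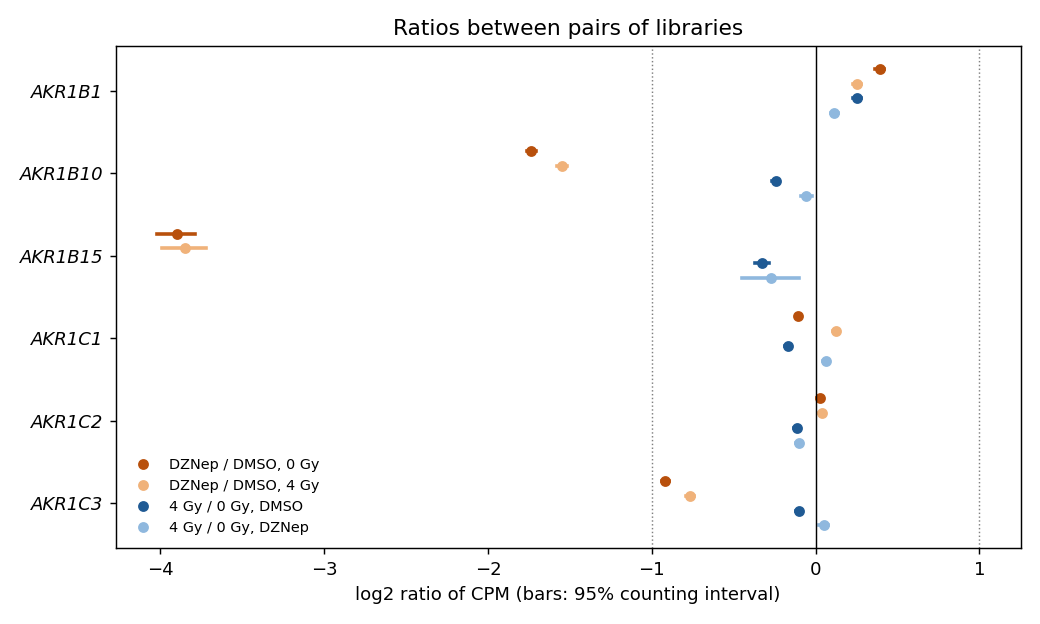
Log2 ratio of CPM (x axis) for each gene in the 4 pairs of libraries that share a dose or a drug, with points for the ratio, bars for the 95% counting interval and dotted lines at 2-fold. The DZNep ratios of AKR1B15 lie near -3.90 and -3.85 and those of AKR1B10 at -1.74 and -1.55, while all radiation ratios lie between -0.33 and 0.25.

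**Figure D3:**
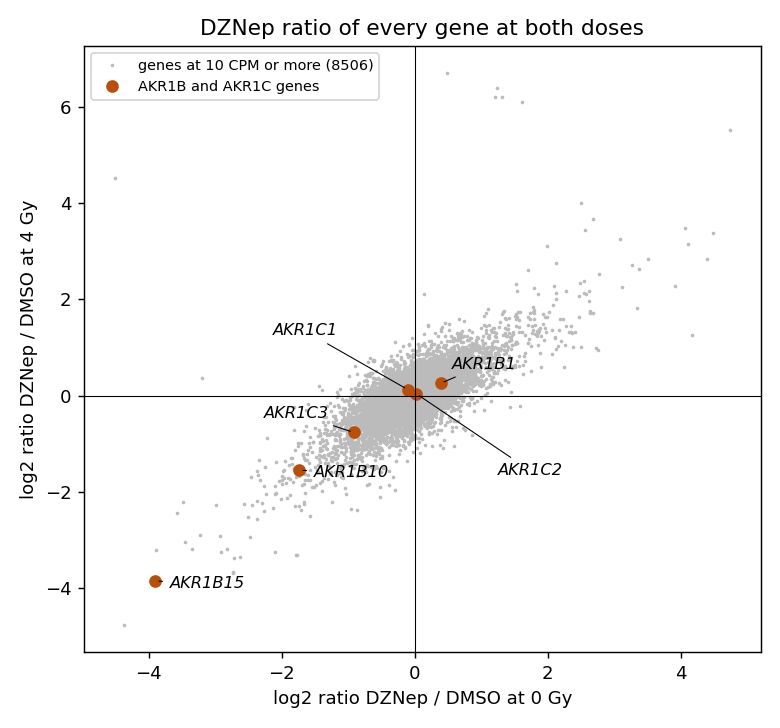
Log2 ratio of DZNep to DMSO at 0 Gy (x axis) and at 4 Gy (y axis) for 8506 genes at 10 CPM or more in at least 1 library, with the 6 genes marked in orange. AKR1B15 lies at the far lower left, AKR1B10 and AKR1C3 between it and the centre, and AKR1C1, AKR1C2 and AKR1B1 in the central cloud.

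The split of counts within each group of close relatives differed between drug and solvent as well. AKR1B15 held 17.2% of the summed AKR1B10 and AKR1B15 counts in DMSO 0 Gy (Clopper-Pearson 95% interval 16.9 to 17.5) and 16.4% in DMSO 4 Gy (16.03 to 16.7). With DZNep it held 4.41% at 0 Gy (4.08 to 4.75) and 3.82% at 4 Gy (3.49 to 4.17). AKR1B15 counts were therefore not a fixed share of AKR1B10 counts across the libraries. The treatment of reads that match both genes is not given. How many of the 656 and 477 AKR1B15 counts in DZNep came from AKR1B10 transcripts therefore cannot be told. Summed, AKR1B10 and AKR1B15 stood at 442 and 369.8 CPM in DMSO and at 115 and 109.9 CPM in DZNep, at 0 and 4 Gy respectively (log2 ratios -1.94 and -1.75).

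AKR1C3 held 26.7% and 27.2% of the AKR1C counts in DMSO at 0 and 4 Gy, against 16.5% and 17.2% in DZNep. The share of AKR1C1 in the sum of AKR1C1 and AKR1C2 was 52.9% and 51.9% in DMSO and 50.7% and 53.5% in DZNep, with no order by drug. Of all counts on the 6 genes, the AKR1C genes held 68.7% to 69.3% in DMSO and 76.9% to 77.6% in DZNep, and AKR1B10 with AKR1B15 held 20.1% to 22.2% and 7.19% to 7.57%. The total of the 6 genes was 1996 CPM in DMSO 0 Gy, 1835 in DMSO 4 Gy, 1519 in DZNep 0 Gy and 1528 in DZNep 4 Gy.

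**Figure D4:**
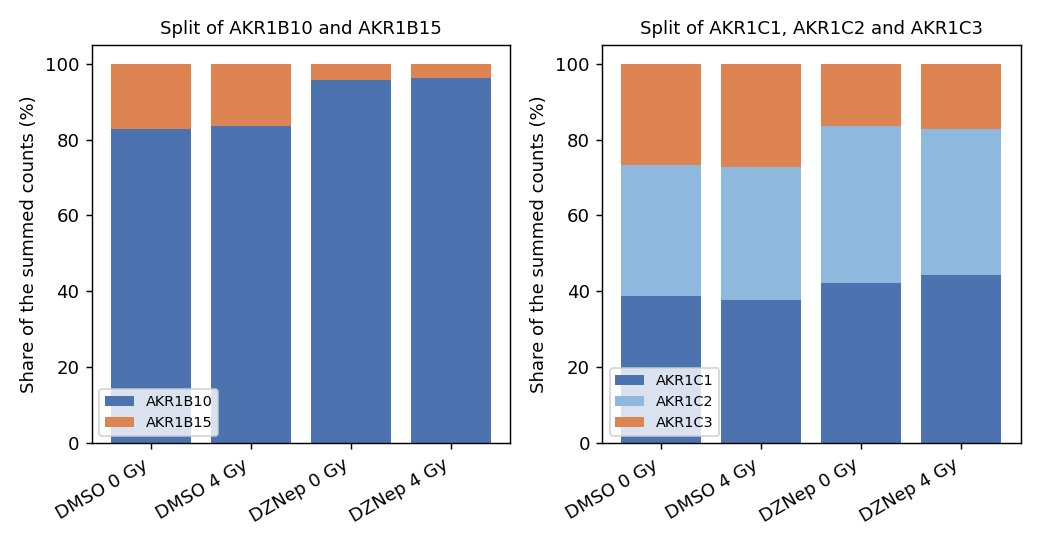
Percent of summed counts (y axis) held by each gene within the AKR1B10 and AKR1B15 pair (left) and within AKR1C1, AKR1C2 and AKR1C3 (right), in each of the 4 libraries. AKR1B15 takes 16.4% to 17.2% in DMSO and 3.82% to 4.41% in DZNep, and AKR1C3 takes 26.7% to 27.2% and 16.5% to 17.2%.

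Radiation was accompanied by smaller differences than DZNep for AKR1B10, AKR1B15 and AKR1C3. AKR1B15 had log2 ratios of 4 to 0 Gy of -0.33 (interval -0.37 to -0.28) in DMSO and -0.27 (interval -0.45 to -0.10) in DZNep, and AKR1B10 had -0.24 and -0.06. AKR1B1 was higher at 4 Gy with either agent, at 0.25 in DMSO and 0.11 in DZNep. AKR1C2 was lower with either, at -0.11 and -0.10. AKR1C1 was lower at 4 Gy in DMSO (-0.17) and higher in DZNep (0.06), as was AKR1C3 (-0.10 and 0.05). None of the 6 genes was 2-fold apart between doses, beside 2.06% of genes upward and 1% downward in DMSO, and 0.901% and 0.2% in DZNep. The drug and radiation comparisons share libraries and are not independent. Subtracting the DMSO radiation ratio from that in DZNep gave values between -0.14 (AKR1B1) and 0.23 (AKR1C1) and has no error estimate with 1 library per group.

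Levels of different genes can be compared only per length, and the order then depended on which length was used. Per kb of the union of annotated exons, DMSO 0 Gy held AKR1B10 at 209.99 CPM per kb, AKR1C3 at 81.3, AKR1C2 at 73.9, AKR1C1 at 61.2, AKR1B1 at 46.8 and AKR1B15 at 22.8. Per kb of coding sequence, AKR1C1 came first at 553 CPM per kb and AKR1C2 second at 493, followed by AKR1B10 at 386 and AKR1C3 at 380.3. The exon union of AKR1C1 was 8765 bases against 969 coding bases. AKR1B15 was the lowest of the 6 in all 4 libraries under the exon union, the longest transcript and the coding length. By coding length, AKR1B10 stood above AKR1B1 and AKR1C3 in DMSO 0 Gy and below AKR1B1 and AKR1C3 in both DZNep libraries. In DMSO 4 Gy it was above AKR1B1 but already below AKR1C3 (326 against 354 CPM per kb). Under the exon union AKR1B10 stood above AKR1C3 in all 4 libraries. It was also above AKR1B1 there, except in DZNep 4 Gy (60.6 against 66.5 CPM per kb). With 1 library per group, whether neighbours in these orders differ beyond a replicate spread cannot be told.

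The AKR1B genes lie side by side on chromosome 7 and the AKR1C genes on chromosome 10, so the 4 protein-coding genes on each side of each cluster, in RefSeq order, were looked at after the values of the members were seen. For these and all other genes outside the 6, drug and dose entered 1 additive model fitted to the 4 libraries. Tests were edgeR's quasi-likelihood tests, with p-values adjusted by Benjamini-Hochberg across 13378 genes, and an adjusted p under 0.05 was called. Around AKR1B1, AKR1B10 and AKR1B15, 6 of 8 neighbours were tested and 0 were called for DZNep (0 at an unadjusted p under 0.05, and 0 by DESeq2), beside 10.8% of all tested genes that rose and 12.3% that fell. Their log2 fold changes ran from -0.23 for CALD1, which binds actin filaments, to 0.34 for BPGM, which makes bisphosphoglycerate (SE 0.14 and 0.19, edgeR adjusted p = 0.279 and 0.215). AKR1B10 and AKR1B15 thus lay between tested genes with smaller differences. Around the AKR1C cluster 4 of the 7 neighbours with a count row were tested and 0 were called for DZNep (1 at an unadjusted p under 0.05, and 0 by DESeq2), beside the same 10.8% and 12.3%. Their log2 fold changes ran from -0.59 to 0.08. They included the family members AKR1C4 and AKR1C8P, whose SEs of 0.62 and 1.16 left little room for a call.

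Of the 11 other aldo-keto reductases, 7 were tested, 0 rose and 2 fell with DZNep, beside 10.8% of all tested genes that rose and 12.3% that fell. Their median log2 fold change was -0.57, against -0.02 over all tested genes, and it was -0.99 with the drug alone in the model. KCNAB2, a potassium channel beta subunit of the family, stood at 95.8 and 117 CPM in DMSO and at 30.2 and 33.03 CPM in DZNep, at 0 and 4 Gy (-1.75, SE 0.16, edgeR adjusted p = 1.87e-05). AKR7A2, an aflatoxin aldehyde reductase, stood at 22.7 and 23.8 CPM in DMSO and 15.7 and 15.7 CPM in DZNep (-0.57, SE 0.17, edgeR adjusted p = 0.0311), and it lost that call without the filter on low counts. AKR1A1, a broad aldehyde reductase, was at 142 and 133 CPM against 175 and 179 CPM (0.36, SE 0.15, edgeR adjusted p = 0.0932). After radiation 0 of the 7 were called (0 at an unadjusted p under 0.05, and 0 by DESeq2), beside 2.17% of all genes that rose and 0.897% that fell (290 and 120 genes, or 364 and 281 with plain library size).

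AKR1C4, the liver-type member of the AKR1C cluster, and its neighbour AKR1C8P were highest in DMSO 4 Gy. AKR1C4 had 93 counts in DMSO 0 Gy, 422 in DMSO 4 Gy, 182 in DZNep 0 Gy and 93 in DZNep 4 Gy, and AKR1C8P had 24, 584, 188 and 83. Neither was called for drug (edgeR adjusted p = 0.529 and 0.953). Their log2 ratios of DZNep to DMSO had opposite directions at the doses, 1.05 at 0 Gy and -2.18 at 4 Gy for AKR1C4, and 2.95 and -2.81 for AKR1C8P. The additive model fits 1 drug effect to both doses, so the missing call does not mean that drug and solvent were alike at either dose. AKR1C4 shared 109 of the 920 windows of AKR1C3, 76 of those of AKR1C2 and 56 of those of AKR1C1, so its low count is uncertain. AKR1D1 had 0 counts in all 4 libraries, where 0 counts allow up to 3, or 0.0217 to 0.0267 CPM.

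Of 10 NRF2 pathway regulators, 3 rose and 0 fell with DZNep (median -0.05), beside 10.8% and 12.3% of all tested genes: MAFF (0.90, SE 0.21), BACH1, a repressor at NRF2 sites (0.60, SE 0.18), and KEAP1 (0.58, SE 0.17, edgeR adjusted p = 0.0288). The last 2 lost their calls without the filter on low counts. NFE2L2 itself stood at 204 and 219 CPM in DMSO and 241 and 252 CPM in DZNep (0.22, SE 0.14, edgeR adjusted p = 0.285). Of 33 tested NRF2 targets outside the aldo-keto reductases, 3 rose, 8 fell and 22 were not called, with a median of -0.05, beside 10.8% of all tested genes that rose and 12.3% that fell. OSGIN1, a growth inhibitor induced by oxidative stress, fell (-1.74, SE 0.17), from 43.03 and 48.2 CPM in DMSO to 12.5 and 14.9 CPM in DZNep. ABCC3, an export pump for conjugates, fell by 0.95 (SE 0.16), and NQO1, a quinone reductase, rose by 1.13 (SE 0.13). Called NRF2 targets thus lay in both directions, 3 up and 8 down, beside 1446 up and 1640 down among all tested genes. After radiation 1 of the 33 rose, ALDH3A1, an aldehyde dehydrogenase (1.11, SE 0.14, edgeR adjusted p = 0.00159), and 0 fell, beside 2.17% and 0.897% of all genes. At an unadjusted p under 0.05 the targets numbered 3 up and 5 down, and the called ones 2 up and 1 down by DESeq2, 1 up and 3 down with plain library size, and 2 up and 5 down with a filter at 10 CPM.

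The lists of enzymes that act on related substrates are read against the same 10.8% of all tested genes that rose and 12.3% that fell with DZNep. Of 29 tested aldehyde dehydrogenases and carbonyl reductases, 1 rose and 5 fell (median -0.28), against 3 and 3 with a filter at 10 CPM and 1 and 3 by DESeq2. The falls included ALDH1A3, which makes retinoic acid (-1.56, SE 0.37), PTGR2, a prostaglandin reductase (-1.40, SE 0.27), and ALDH3B1 (-1.396, SE 0.17). The rise was that of ALDH3A1 (0.68, SE 0.14). ALDH1A3 was at 1.25 CPM or less in every library, and DESeq2 did not call it. Of 19 tested steroid and prostaglandin enzymes, 2 rose and 4 fell (median 0.13), the rises near the share over all genes. PTGS2, the inducible cyclooxygenase upstream of AKR1C3 in prostaglandin F synthesis, rose from 6.76 and 11.6 CPM in DMSO to 29.1 and 26.7 CPM in DZNep (1.65, SE 0.22, edgeR adjusted p = 0.000265). SRD5A1, which makes the AKR1C2 substrate dihydrotestosterone, fell (-1.27, SE 0.20), as did SRD5A3 (-1.24, SE 0.25).

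Of 18 tested retinoid genes, 4 rose and 3 fell (median 0.01), beside 10.8% and 12.3% of all tested genes, and with a filter at 10 CPM 2 rose and 1 fell. CYP26B1, which breaks down retinoic acid, rose from 4.13 and 2.63 CPM to 13.5 and 16.2 CPM (2.16, SE 0.25, edgeR adjusted p = 8.03e-05), and CRABP2, a retinoic acid binding protein, rose by 1.52 (SE 0.26). Among the falls was ALDH1A3, which is in this list too (-1.56, SE 0.37). Called genes of the list thus lay in both directions. Of 8 tested polyol and fructose pathway genes 1 rose and 2 fell, or 2 and 2 with a filter at 10 CPM. SLC2A1, a glucose transporter, rose (0.95, SE 0.16), and KHK, which phosphorylates fructose (-0.74, SE 0.22), and SLC5A3, a myo-inositol transporter (-0.70, SE 0.20), fell. SORD, which follows AKR1B1 in that pathway, stood at 135 and 97.7 CPM in DMSO and 88.9 and 82.4 CPM in DZNep (-0.42, SE 0.16, edgeR adjusted p = 0.0718). The list's median was -0.15, and it was 0.14 with no filter on low counts and 0.18 with a filter at 10 CPM. After radiation edgeR called 0 genes of the regulator, steroid, retinoid and polyol lists, where 0, 3, 2 and 1 had an unadjusted p under 0.05 and DESeq2 called 0. With a filter at 10 CPM edgeR called 1 steroid gene down, 1 retinoid gene up and 1 polyol gene down, with plain library size 1 steroid gene down, and without a filter 1 steroid gene up. In the dehydrogenase list edgeR called ALDH3A1 alone, while DESeq2 called 2 genes and edgeR with a filter at 10 CPM called 3, all upward and ALDH3B1 among them in both.

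Among 8500 other genes at 10 CPM or more, the pattern most like that of AKR1B10 with AKR1B15 was found by the smallest distance between centred log2 CPM values over the 4 libraries. HADH, a fatty acid oxidation enzyme, was nearest at a distance of 0.10, with 111 and 86.7 CPM in DMSO and 29.5 and 26.6 CPM in DZNep. CMC4 (0.14), DPH5 (0.196), PQLC3 (0.198) and TYSND1 (0.23) followed. For the AKR1C sum the nearest were GUSB, a lysosomal glucuronidase, at 0.01, E2F4 and PRR5 at 0.04, PKP4 at 0.04 and CDK11A at 0.04. With 4 libraries and 8500 candidates, such closeness describes these libraries only.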

How the data were processed

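Per the labels' protocols, Trizol RNA of NCI-H460 went into Lexogen SENSE libraries. The deposited values are unnormalized counts, whole numbers for each gene symbol, in a separate table for each library. TopHat, edgeR and the hg19 build are named in the submitters' processing notes, but versions, counting program, annotation, strand use and the treatment of reads matching several genes stand as not given in the sources used here. Even values made up 55.9% to 58.1% of counts from 1 to 59, and whether mates were counted separately, which would make counting intervals too narrow, was not tested.

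Counts were scaled by TMM with edgeR 4.0.16 (R 4.3.3). The 13378 genes that reached 1 CPM in 2 or more libraries were tested, the 6 reductases among them. The additive model had 1 residual and 11.5 prior degrees of freedom, and its biological coefficient of variation was 0.163. The p-values measure the spread between 4 libraries that nothing shows to be separate cultures, and departures from additivity count as spread. SE was taken as the size of the log2 fold change over the root of F. Log2 ratios of 2 libraries used a prior count of 2. Genes at least 2-fold apart were counted where 1 of the pair reached 10 CPM. The test was also tried on simulated counts.

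The 6 genes, 7 gene lists and tests were chosen with earlier results of these data known. Named from each list were the 3 largest DZNep effects and the largest radiation effect among called genes, plus NFE2L2, KEAP1, NQO1, AKR1A1 and AKR7A2, and the 5 most similar patterns. AKR1D1, AKR1C4, AKR1C8P, AKR1E2, AKR7A3, KCNAB3, CALD1, BPGM, SORD and SLC7A11 were named after their values were seen. AKR1CL1 was matched to AKR1C8P through RefSeq synonyms. Sequences came from GENCODE 29 and RefSeq, aligned with Biopython 1.88, on another build than hg19. Alternatives were DESeq2 1.42.0, its size factors, plain library size, other filters, 1-factor models, a prior count of 0.5, summed relatives and other lengths.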

Additional observations from a re-analysis of the deposited data

Results flagged for a closer look

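The radiation ratios of the 13 aldo-keto reductases that passed the filter for testing, the 6 genes and 7 others, were compared between DMSO and DZNep. They had opposite directions for 5, with intervals on either side of 0 that cover counting error only and are narrow at high counts. AKR1E2 (0.91 and -0.60), AKR7A3 (0.99 and -0.12) and KCNAB3 (0.01 and -1.37) failed that filter. Their ratios also had opposite directions, at low counts and with no interval computed. Genes outside the family were not searched, so no share over all genes stands beside the 5 and they are a description. NQO1 (0.29 and -0.19) and SLC7A11 (0.30 and -0.63) also had opposite directions. No difference between these ratios was tested, since each rests on 1 library per group. For AKR1C1 the log2 ratio of 4 to 0 Gy was -0.17 in DMSO and 0.06 in DZNep, a difference of 0.23. For AKR1C3 it was -0.10 and 0.05, a difference of 0.15. For AKR1A1 it was -0.09 and 0.03, a difference of 0.13. With plain library sizes the DZNep ratios were nearer 0 or below it, at 0.02 for AKR1C1, 0.00478 for AKR1C3 and -0.01 for AKR1A1.

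AKR1C4 and AKR1C8P had the larger differences. AKR1C8P stood at 0.173 CPM in DMSO 0 Gy, 5.197 in DMSO 4 Gy, 1.45 in DZNep 0 Gy and 0.73 in DZNep 4 Gy, so both DMSO libraries lay outside the DZNep range. AKR1C4 had a ratio of 2.45 (interval 2.16 to 2.82) in DMSO and -0.77 (interval -1.16 to -0.41) in DZNep, a difference of -3.23. AKR1C8P had 4.78 (interval 4.32 to 5.56) and -0.98 (interval -1.38 to -0.61), a difference of -5.76. AKR1C1, AKR1C2 and AKR1C3 had ratios of -0.17, -0.11 and -0.10 in the same comparison.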

How the results depend on the processing

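Under DESeq2 size factors, plain library size and a prior count of 0.5, the ratios of the 6 genes and their sums kept their direction, except the sum of all 6 for radiation in DZNep (0.01, and -0.04 with plain library size). They moved by at most 0.02 with DESeq2 size factors, 0.04 with plain library size and 0.00388 with a prior count of 0.5. With plain library size the summed AKR1B10 and AKR1B15 ratio was -1.78 for DZNep at 4 Gy, -0.28 for radiation in DMSO and -0.11 in DZNep, and the AKR1C sum was -0.13, -0.15 and -0.0503. With DESeq2 size factors the radiation ratio in DMSO was -0.23 and -0.11 for these sums, and the AKR1C ratio for DZNep at 0 Gy was -0.21. These moves exceed counting intervals only. Summing AKR1C1, AKR1C2 and AKR1C3 turned the sign of the DZNep ratio of AKR1C2 at 0 Gy (-0.23) and of AKR1C1 and AKR1C2 at 4 Gy (-0.10), and of the radiation ratio in DZNep of AKR1C1 and AKR1C3 (-0.00597), since AKR1C3 enters the sum.

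With a minimum of 1 CPM in place of 10 CPM, 817 genes passed 2-fold upward and 839 downward with DZNep at 0 Gy, 694 and 993 at 4 Gy, 574 and 233 with radiation in DMSO, and 275 and 187 in DZNep, against 294, 294, 267, 321, 167, 81, 72 and 16. With DZNep alone in the model 355 genes rose and 366 fell, against 1446 and 1640. For radiation, 290 rises and 120 falls became 452 and 217 with DESeq2, 134 and 65 without a filter, 590 and 441 with a 10 CPM filter, 364 and 281 with plain library size, and 0 and 0 with dose alone (524 at an unadjusted p under 0.05). The cause was not tested. With the tested factor alone, 10 calls of named genes outside the 6 were lost. Radiation calls were gained by ABCC3 under DESeq2, its size factors and the 10 CPM filter, and by ALDH3B1 under DESeq2 and the 10 CPM filter. List counts moved by over 1.5 times in 37 comparisons with an alternative and stayed within that in 131. Of the 5 most similar genes, Pearson correlation shared 0 for AKR1B10 with AKR1B15 and 1 for the AKR1C sum. No paired analysis was possible because each group has 1 library and the groups share fewer than 2 replicate numbers. Leaving out a library was not run, since 3 libraries leave the additive model no residual degrees of freedom. Depth did not limit the 6 genes, which had 477 counts or more, and replication did. For the close relatives among them, so did the treatment of reads that match several genes, which is not given.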
